A study of Danio rerio with 8 samples.

Results

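The gamma crystallins are the genes whose symbol starts with cryg, and the array carried 1 probe for each of 41 of them, among 20958 genes that could be named. They were found by matching the RefSeq accession of each probe to the RefSeq gene table of the GRCz12tu assembly, by a rule that uses symbols and no measured value. Of the 41 genes, 21 belonged to the crygm2d group, 11 were other crygm genes, 3 were crygmx genes, 2 were crygn genes and 4 were crygs genes. The family was chosen for study with earlier results of these data known. So was the split, by symbol, of the crygm2d genes from the other crygm genes. The contrast between these groups and the counts set against all named genes are therefore descriptive. RNA came from whole bodies of zebrafish at 5 weeks after fertilisation. The mutant fish were pex2-/- for the typeC allele of pex2 and the controls were their pex2+/+ siblings. Each of the 8 arrays held a pool of equal RNA amounts from 3 fish, with 4 pools per genotype and no treatment beyond genotyping named in the labels. The labels state neither the sex of the fish nor whether pools came from separate clutches, and p-values therefore reflect only how much pools varied.

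Crystallins are the soluble proteins that fill the fibre cells of the lens and give it its refractive power. Gamma crystallins share a Greek key fold with the beta crystallins, and human gamma crystallin mutations cause inherited cataract. The gamma M proteins are rich in methionine and are abundant in the dense lenses of fish, gamma S is found from fish to mammals, and gamma N stands between the beta and gamma families. The fish lens grows throughout life by adding new fibre cells over old ones. The product of pex2 sits in the peroxisomal membrane and takes part in the import of its enzymes, and loss of human PEX2 causes Zellweger spectrum disorder. The comparison of mutants with siblings asks how the transcripts of each gamma crystallin differ when pex2 is mutated.

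All values below are log2 intensity minus the 75th percentile of the array, averaged over the 2 spots of a probe, and differences are mutant minus sibling. They are therefore relative to the other probes of the array. The 75th percentile of intensity had a mean of 698 ± 106.97 among the siblings and of 476 ± 24.7 among the mutants (SD, n = 4 arrays per genotype). Mutant replicate 4 had 67.2% of its probes well above background, and the remaining 7 arrays had 72.6% to 76.2%. The correlation between arrays lay between 0.981 and 0.992 among siblings, between 0.935 and 0.980 among mutants and between 0.861 and 0.929 across genotypes. No probe carried the accession of pex2, so its transcript was not used to check the labels. Precision is limited by there being 4 arrays per genotype. The lens markers cryaa, mipa and mipb were well above background on all 8 arrays.

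Every measured gamma crystallin outside the crygm2d group was lower in the mutants, by 1.61-fold (crygm2b) to 185-fold (crygm6), whereas 16 of the 19 measured crygm2d genes did not pass the test and differed from the siblings by -0.29 to 0.01. The upper value is uncertain, since crygm6 was well above background on 2 of 4 mutant arrays and its log2 difference of -7.53 was -5.85 with normexp background correction. The number of crygm2d genes called lower was 3, and it was 6 with quantile scaling, which added crygm2d3, crygm2d5 and crygm2d10 and called crygm2d1 higher. It was also 6 with array weights, which added crygm2d11, crygm2d13 and crygm2d14. Of 39 genes tested, 23 were lower, 0 were higher and 16 did not pass an adjusted p of 0.05 (limma, Benjamini-Hochberg over all probes kept). Of all 17260 named genes tested, 27.8% were lower and 29.9% were higher by the same rule, 57.6% in all. The 23 genes were those in which every mutant array lay below every sibling array, which held for 26.1% of all named genes. The reverse order was found in 0 gamma crystallins and in 28.5% of all named genes. A fall of at least 2-fold was called in 20 gamma crystallins and in 12.4% of all named genes. A fall of at least 4-fold was called in 16 gamma crystallins and in 4.04% of all named genes. The median difference was -0.082 for the crygm2d genes, -2.98 for the other crygm genes, -1.88 for crygmx, -2.38 for crygn and -3.15 for crygs, against 0.012 for all named genes tested. With normexp background correction crygs had the smallest fall outside the crygm2d group (-1.87). The other crygm, crygmx and crygn medians were then -2.58, -1.92 and -2.12, so the order of subfamilies depended on the correction. In whole-body RNA, fewer lens fibre cells and less crystallin RNA per cell cannot be told apart.

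**Figure D1:**
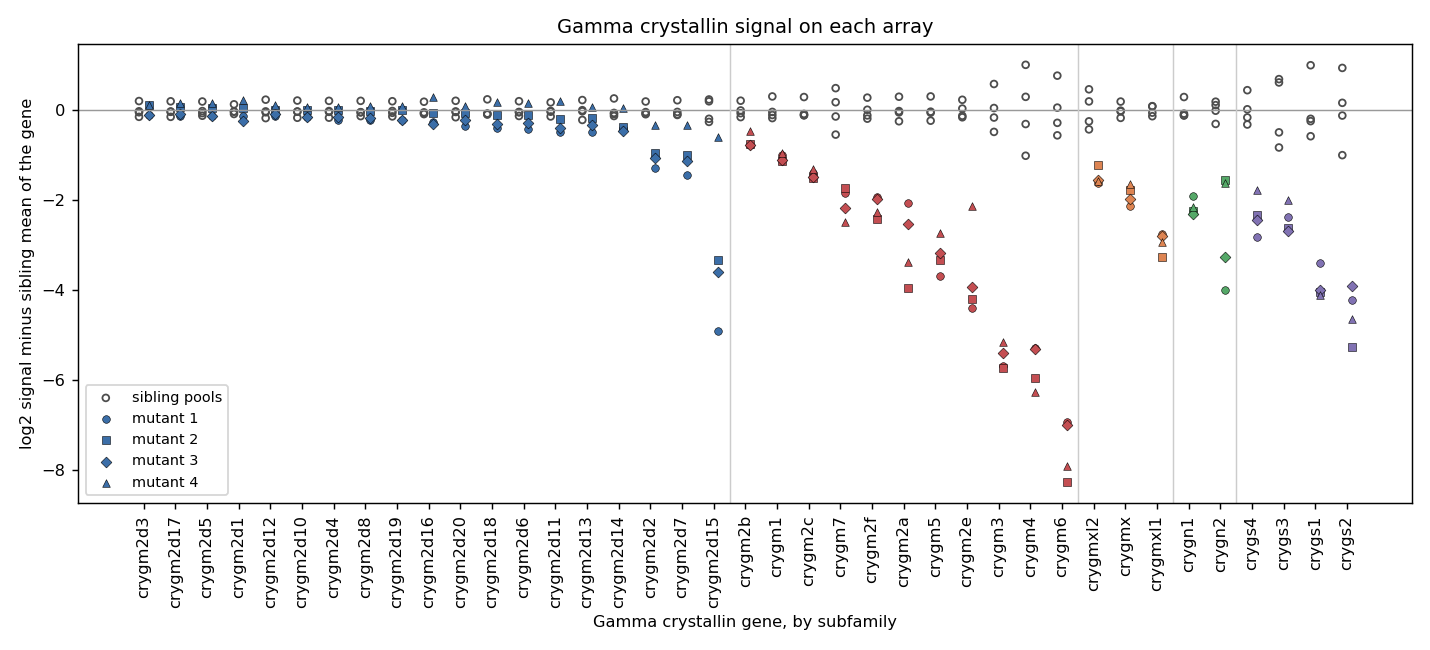
Log2 signal of each of the 39 measured gamma crystallin genes on each array, minus the mean of the 4 sibling pools for that gene. Open circles are sibling pools, filled symbols are mutant pools with 1 shape per pool, and colour marks the subfamily. The crygm2d genes lie near 0 except for crygm2d2, crygm2d7 and crygm2d15, and the 20 genes of the other subfamilies lie below 0 in every mutant pool.

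The crygm2d genes are a set of closely related gamma M2 copies, and most of their probes gave bright signals in both genotypes. For crygm2d5 the sibling pools gave 8.75, 9.06, 8.80 and 8.85 and the mutant pools 8.74, 8.92, 8.75 and 9.03. The 2 sets of values overlapped, with a difference of -0.0029 ± 0.11 (SE, 95% interval -0.26 to 0.25, limma adjusted p = 0.984). In crygm2d3 the siblings gave 8.71, 9.06, 8.81 and 8.83 and the mutants 8.75, 8.98, 8.75 and 8.97. Its difference was 0.013 ± 0.11 and its interval ran from -0.24 to 0.27. The genotypes overlapped in both genes, but with quantile scaling crygm2d3 was called lower (-0.33), as was crygm2d5 (-0.38). For crygm2d17 the siblings gave 8.26, 8.61, 8.38 and 8.37 and the mutants 8.28, 8.48, 8.33 and 8.57. This was the only other crygm2d gene with a difference above 0 (0.012 ± 0.11).

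For crygm2d1 the siblings gave 6.49, 6.65, 6.44 and 6.49 and the mutants 6.38, 6.58, 6.28 and 6.74. The groups overlapped at -0.022 ± 0.12, and with quantile scaling alone the gene was called higher (0.40, adjusted p = 0.0282). For crygm2d13 the siblings gave 7.48, 7.92, 7.70 and 7.67 and the mutants 7.21, 7.51, 7.36 and 7.76. For crygm2d14 the siblings gave 6.33, 6.68, 6.29 and 6.36 and the mutants 6.02, 6.05, 5.94 and 6.47. In crygm2d14 mutant replicates 1 to 3 were below all siblings and replicate 4 was among them, while in crygm2d13 replicates 2 and 4 lay within the sibling range. Of the crygm2d genes that did not pass, crygm2d14 had the lowest difference (-0.29 ± 0.15, interval -0.63 to 0.043, adjusted p = 0.117). Over the 16 genes the 95% intervals together spanned -0.63 to 0.27. The estimate for crygm2b (-0.69) lay outside all of them, but its own interval (-0.96 to -0.42) overlapped some, that of crygm2d14 included. At an unadjusted p of 0.05, 0 of the 16 passed with limma. The missed threshold does not show that these genes were the same in both genotypes.

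Without mutant replicate 4, the crygm2d genes called lower rose in number from 3 to 5, with crygm2d11 (-0.35) and crygm2d14 (-0.41) added. That pool was the highest of the 4 mutant pools in 18 of the 19 crygm2d genes and in 9 of the 20 other genes. The 8 arrays lay in 2 rows of 1 slide, each with 2 pools per genotype, and the crygm2d genes differed between the rows. In the first row all 16 that did not pass were below 0, between -0.54 and -0.18. That row held sibling replicate 2, the highest sibling array in 19 of the 19 crygm2d genes. In the second row, which held mutant replicate 4, only 1 of the 16 was below 0, and the values lay between -0.047 and 0.22. With the slide row as a block the number of crygm2d genes called lower was again 3. Such a block shifts both genotypes of a row alike, so it could not account for a genotype difference that varied between rows.

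The 3 crygm2d genes that fell did so by different amounts. The gene crygm2d2 gave 8.56, 8.84, 8.57 and 8.61 in the siblings and 7.36, 7.69, 7.58 and 8.32 in the mutants. Its difference was -0.91 ± 0.20 (adjusted p = 0.00492). The gene crygm2d7 gave 8.30, 8.61, 8.28 and 8.35 in the siblings and 6.94, 7.38, 7.26 and 8.07 in the mutants, a difference of -0.97 ± 0.22 (adjusted p = 0.00650). In both, mutant replicate 4 was nearest to the siblings and mutant replicate 1 farthest. The gene crygm2d15 was far dimmer, with 0.03, 0.07, -0.36 and -0.43 in the siblings and -5.09, -3.50, -3.77 and -0.76 in the mutants. It had the same order of the outer mutant pools and a spread of 1.82 (SD) among them, against 0.26 among the siblings. Its difference was -3.11 ± 0.79 (adjusted p = 0.00988), with 3 of 4 mutant arrays well above background. The difference was -3.95 without mutant replicate 4, -2.51 without mutant replicate 1 and -1.98 with normexp background correction. The probes of crygm2d9 and crygm2d21 were not well above background on any array and were not tested. How far a crygm2d probe also binds transcripts of the other copies was not tested.

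**Figure D2:**
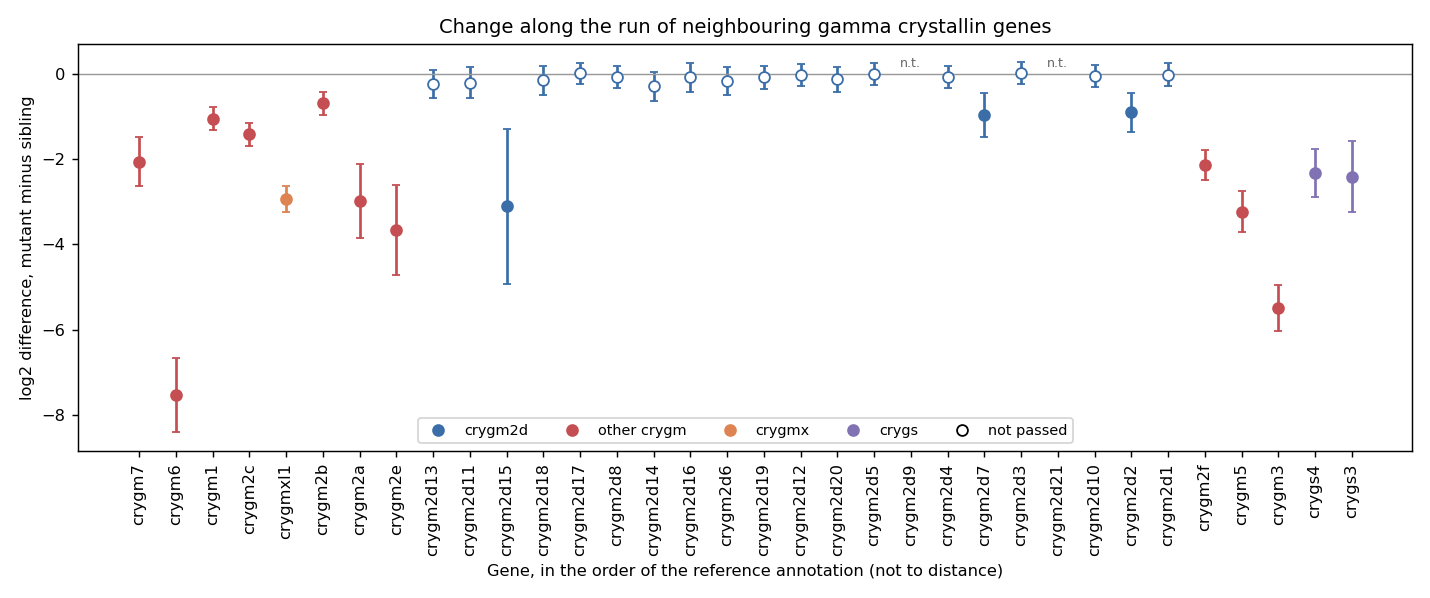
Log2 difference with its 95% interval for the 34 gamma crystallin genes that form 1 run in the reference annotation, in gene order and not to distance. Open circles did not pass the test, colour marks the subfamily, and n.t. marks the 2 genes that were not tested. In the row of 21 crygm2d genes, 16 lie between -0.29 and 0.01, crygm2d2, crygm2d7 and crygm2d15 are lower, and 2 were not tested. The 8 genes on one side of the row and the 5 on the other are all lower.

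The genes of the family are neighbours for the most part, and the crygm2d genes stand together. In the GRCz12tu annotation, 34 of the 41 genes formed a single run with 5 other genes among them. The 21 crygm2d genes stood in a row with no gene of another subfamily between them. Of the flanking genes, 8 lay before and 5 after that row, and all 13 were lower in the mutants. The gene crygm2e, next to the row on one side, differed by -3.67 ± 0.46, while its crygm2d neighbour crygm2d13 differed by -0.23 ± 0.15. On the other side crygm2f differed by -2.14 ± 0.15 and its neighbour crygm2d1 by -0.022 ± 0.12. The 7 genes outside the run (crygm4, crygmx, crygmxl2, crygn1, crygn2, crygs1 and crygs2) were lower as well. Positions are left out because the array was designed on danRer7, an older build.

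Among the other crygm genes, all 11 fell, and the sizes ranged widely. The gene crygm6 gave 3.47, 4.19, 2.86 and 3.14 in the siblings and -3.52, -4.85, -3.59 and -4.50 in the mutants. It was 185-fold lower (-7.53 ± 0.38, adjusted p = 3.13e-05). The gene crygm4 gave 2.53, 3.25, 1.22 and 1.93 in the siblings and -3.06, -3.73, -3.08 and -4.04 in the mutants, 52.4-fold lower (-5.71 ± 0.43). With normexp it differed by -4.43. The gene crygm3 gave 4.09, 4.62, 3.56 and 3.88 in the siblings and -1.65, -1.70, -1.35 and -1.11 in the mutants, 45.0-fold lower (-5.49 ± 0.24). For each of these 3 genes the gap between the genotypes was wider than the whole range within either of them.

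The gene crygm2e gave 5.07, 5.26, 4.91 and 4.87 in the siblings and 0.62, 0.82, 1.096 and 2.89 in the mutants, 12.7-fold lower (-3.67 ± 0.46, adjusted p = 3.47e-04). Mutant replicate 4 was again the nearest to the siblings. The gene crygm2a gave 6.81, 7.13, 6.58 and 6.78 in the siblings and 4.76, 2.87, 4.28 and 3.46 in the mutants, 7.89-fold lower (-2.98 ± 0.38). Here mutant replicates 2 and 4, which lay in the second slide row, were the low ones, and the within-row differences were -2.43 and -3.53. The gene crygm5 was 9.41-fold lower (-3.23 ± 0.21, and -2.58 with normexp). The genes crygm2f, crygm7 and crygm2c were 4.41-fold, 4.16-fold and 2.68-fold lower.

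The smallest falls of this group were in crygm1 and crygm2b. The gene crygm1 gave 7.33, 7.68, 7.19 and 7.26 in the siblings and 6.37, 6.23, 6.25 and 6.41 in the mutants, 2.07-fold lower (-1.05 ± 0.12, adjusted p = 2.56e-04). The gene crygm2b gave 7.83, 8.20, 7.92 and 7.98 in the siblings and 7.21, 7.24, 7.20 and 7.51 in the mutants, 1.61-fold lower (-0.69 ± 0.12, adjusted p = 0.00141). Both falls were larger than the range of the 4 mutant values, and neither gene's groups overlapped.

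The crygmx genes fell in all 3 cases. The gene crygmx gave 6.78, 6.98, 6.76 and 6.61 in the siblings and 4.65, 5.00, 4.82 and 5.15 in the mutants, 3.67-fold lower (-1.88 ± 0.13, adjusted p = 5.49e-05). The gene crygmxl1 gave 2.16, 2.16, 2.02 and 1.94 in the siblings and -0.67, -1.20, -0.74 and -0.87 in the mutants, 7.65-fold lower (-2.94 ± 0.13). The gene crygmxl2 gave 0.73, 0.99, 0.28 and 0.10 in the siblings and -1.10, -0.69, -1.01 and -1.04 in the mutants, 2.80-fold lower (-1.49 ± 0.20). The groups did not overlap in any of the 3, and crygmxl2 had the smallest fall.

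Both crygn genes fell, with very different spreads. The gene crygn1 gave 3.91, 4.28, 3.87 and 3.88 in the siblings and 2.07, 1.74, 1.68 and 1.83 in the mutants, 4.46-fold lower (-2.16 ± 0.13, adjusted p = 4.53e-05). The gene crygn2 gave 0.93, 1.13, 0.63 and 1.05 in the siblings and -3.06, -0.62, -2.34 and -0.68 in the mutants, 6.11-fold lower (-2.61 ± 0.53, adjusted p = 0.00359). The mutant pools of crygn2 were split, with replicates 2 and 4 high and replicates 1 and 3 low. That split matched the 2 slide rows, within which the differences were -3.79 and -1.44. In the siblings the rows also separated, by less and the other way, with 1.13 and 1.05 in the first row and 0.93 and 0.63 in the second. Whether the slide row had a part in it was not tested beyond these values.

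The 4 crygs genes fell as well, from dimmer sibling signals. The gene crygs2 gave 0.58, 1.36, -0.58 and 0.30 in the siblings and -3.80, -4.85, -3.48 and -4.23 in the mutants, 22.8-fold lower (-4.51 ± 0.43, adjusted p = 1.25e-04). The gene crygs1 gave -0.78, 0.41, -1.17 and -0.83 in the siblings and -3.98, -4.64, -4.59 and -4.69 in the mutants, 14.7-fold lower (-3.88 ± 0.34). Each was well above background on 3 of 4 mutant arrays. The gene crygs3 gave -1.68, -1.60, -3.13 and -2.79 in the siblings and -4.68, -4.93, -4.98 and -4.28 in the mutants, 5.34-fold lower (-2.42 ± 0.36), with 3 of 4 mutant arrays well above background. The gene crygs4 gave -0.63, -0.20, -0.96 and -0.81 in the siblings and -3.46, -2.97, -3.09 and -2.41 in the mutants, 5.04-fold lower (-2.33 ± 0.24). With normexp the differences of crygs1 to crygs4 were -2.26, -3.01, -0.86 and -1.48, each still past the threshold. The size of the crygs falls depended on the background correction, while their direction did not.

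To compare single genes between and within subfamilies, the log2 ratio of 2 genes was taken within each array. It was compared between genotypes with an exact two-sided permutation test. The brightest probe of each subfamily was paired with the others, and all pairs within crygmx, crygn and crygs were added, which made 20 pairs. A total of 15 passed after Benjamini-Hochberg adjustment, each with an adjusted p of 0.0381 (exact p = 0.0286, the smallest that 4 against 4 arrays can give). The pairs were chosen after the values were seen, so these p-values are descriptive. As all 15 sit at the smallest p, their adjusted p depends on how many pairs reached it. The ratio of crygm2d5 to crygm2b was 0.87 to 0.92 in the siblings and 1.52 to 1.68 in the mutants, so crygm2d5 was higher relative to crygm2b in 4 of 4 mutant pools, by 0.69. Relative to crygmx it was higher by 1.87, relative to crygn1 by 2.15 and relative to crygs2 by 4.51, again in 4 of 4 pools. The fall of crygm2b was smaller than those of crygmx, crygn1 and crygs2, by 1.19, 1.47 and 3.82 (1.16, 1.40 and 2.24 with normexp). However, crygm2b had the smallest fall of its group and crygs2 the largest of the crygs genes, so these pairs do not rank the subfamilies. By medians, the other crygm genes (-2.98) fell more than the crygmx (-1.88) and crygn (-2.38) genes. The fall of crygs2 was larger than those of crygmx and crygn1, by 2.63 and 2.35. With normexp these last 2 were 1.09 and 0.84 and no longer passed (exact test, adjusted p = 0.0635). The falls of crygmx and crygn1 differed by 0.28, which did not pass (exact p = 0.171, adjusted p = 0.190).

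Within subfamilies, crygmxl1 fell more than crygmx, by 1.06, and more than crygmxl2, by 1.45. The log2 ratios of crygs1 and crygs2 to crygs3 were lower in the mutants, at -1.46 and -2.09, and so were those to crygs4, at -1.55 and -2.18. In the mutants crygs1, crygs2 and crygs3 all lay close to background, with means of -4.48, -4.09 and -4.72, against -0.59, 0.42 and -2.30 in the siblings. Their ratios to each other therefore do not show which of the 3 fell farther. The other 4 of these pairs did not pass (exact p between 0.0857 and 0.886), but 3 of them did with normexp (exact test, adjusted p = 0.0357). These were crygmx against crygmxl2 (-0.39, and -0.67 with normexp), crygs1 against crygs2 (0.63 and 0.75) and crygs3 against crygs4, which changed sign (-0.084 and 0.62). The fourth was crygn1 against crygn2, whose ratio was 2.83 to 3.24 in the siblings and 2.36 to 5.13 in the mutants. Leaving out 1 array ended the call for some within-subfamily pairs: crygs1 against crygs3 without any 1 of the mutant arrays, and crygs1 against crygs4 without any 1 of the sibling arrays. The same held for crygs2 against crygs3 without sibling replicate 2 or 4, and for crygmx against crygmxl1 without sibling replicate 1 or 4 (exact tests, adjusted p between 0.0714 and 0.0762). The differences stayed near their full values, at -1.62 to -1.25 for crygs1 against crygs3 and -1.64 to -1.36 for crygs1 against crygs4. They were -2.01 and -1.97 for crygs2 against crygs3, and 1.03 and 1.05 for crygmx against crygmxl1. The sibling and mutant ratios did not overlap in any of these pairs, whichever array was left out. With fewer arrays the exact test has fewer possible p-values, so a lost call need not mean that the difference rested on 1 array. Without mutant replicate 1, crygmx against crygn1 passed (0.45, exact test, adjusted p = 0.0381).

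**Figure D3:**
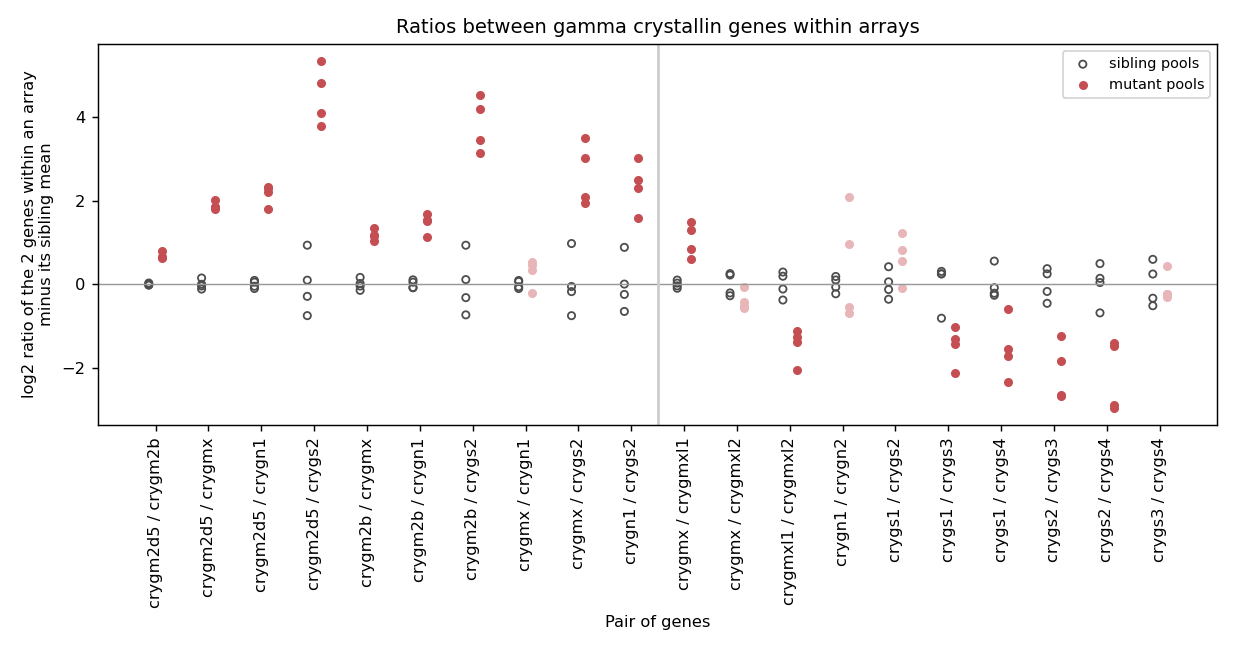
Log2 ratio of 2 gamma crystallin genes within each array, minus its mean over the 4 sibling pools, for 20 pairs. Open circles are sibling pools and red circles mutant pools, pale where the pair did not pass the exact permutation test. The 10 pairs left of the line are between subfamilies and 9 of them passed, with crygm2d5 higher relative to each partner, and 6 of the 10 pairs to the right of it passed.

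The crygm2d probes were among the brightest of the family, so the changes were also set against the signal. No spot of these probes was saturated on any array, and the 2 spots of a probe differed by a median of 0.065. Between sibling signals of 6 and 8, where both patterns were present, 7 crygm2d genes did not pass and differed by -0.29 to -0.022. In the same range 6 genes of other subfamilies were lower by -2.98 to -0.69. Above a signal of 8, crygm2d2 and crygm2d7 were lower and 9 other crygm2d genes did not pass. The brightest gene of another subfamily was crygm2b, at 7.98, so above 8 there were only crygm2d genes to compare. Genes with similar signals in these ranges differed in their change. Between 6 and 8 the falls of the other subfamilies were smaller in the brighter genes. They were -0.69, -1.42 and -1.05 at signals of 7.98, 7.47 and 7.37 (crygm2b, crygm2c and crygm1). At signals of 6.82, 6.78 and 6.36 they were -2.98, -1.88 and -2.14 (crygm2a, crygmx and crygm2f). However, every tested gene with a sibling signal below 6 was lower, crygm2d15 among them, so the calls also varied with signal. The part of signal level in the crygm2d pattern was not tested.

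**Figure D4:**
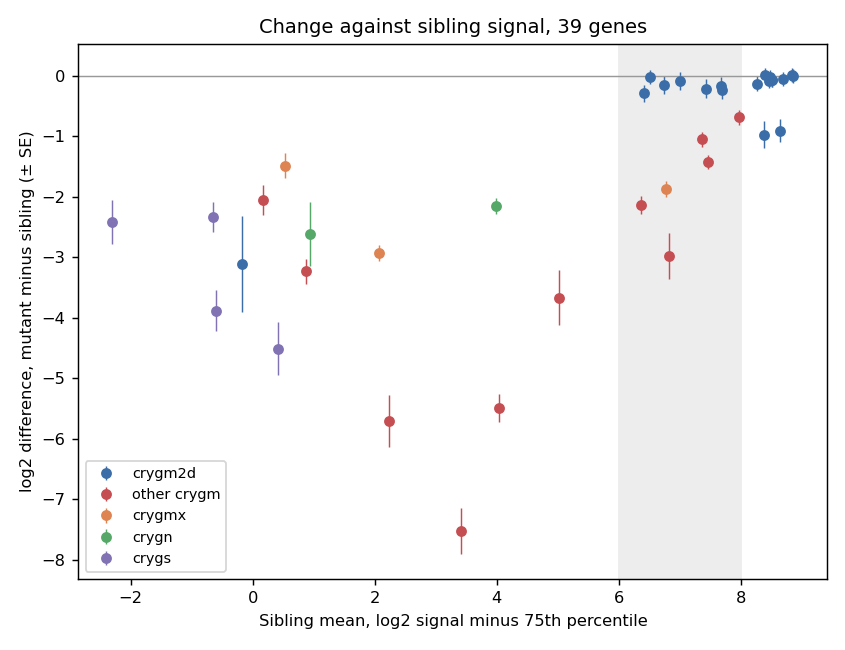
Log2 difference (± SE) of the 39 measured genes against their mean signal in the 4 sibling pools, by subfamily. The shaded range from 6 to 8 holds 7 crygm2d genes with differences of -0.29 to -0.022 and 6 genes of other subfamilies with differences of -2.98 to -0.69.

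Signal was also taken as a share of the summed intensity of all probes, a scaling by a total that includes the crygm2d probes. By this measure the crygm2d probes held 4.46% ± 0.25 in the siblings and 4.10% ± 0.73 in the mutants (SD, n = 4 each). On mutant replicates 1 to 4 the share was 3.65%, 3.91%, 3.66% and 5.19%, and on the sibling arrays it lay between 4.26% and 4.82%. Thus 3 mutant pools were below every sibling pool and 1 was above them all. The other crygm probes held 0.743% ± 0.075 in the siblings and 0.303% ± 0.044 in the mutants, with no overlap. The crygmx probes held 0.1001% ± 0.0092 and 0.0277% ± 0.0052.

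The genes shared their highest sibling pool but no full order of pools. Sibling replicate 2 was the highest sibling array in 19 of 19 crygm2d genes and in 20 of 20 genes of the other subfamilies. It was also the highest in genes of other lists, such as cryba4, myhz1.1 and ckma, but not in fga or snap25a. How often it was the highest over all named genes was not counted, so this is not shown to be particular to the family. The lowest sibling array was replicate 1 in 14 of 19 crygm2d genes and replicate 3 in 14 of 20 other genes. Among the mutants, replicate 1 was the lowest in 13 of 19 crygm2d genes, while in the 20 other genes replicates 1 to 4 were the lowest in 6, 8, 3 and 3. Relative to the mean of the 8 arrays, the median of the crygs genes was 1.79, 2.42, 1.05 and 1.35 in sibling replicates 1 to 4 and between -1.76 and -1.47 in the mutants. For crygmx the medians were 0.77 to 1.21 in the siblings and -1.19 to -0.82 in the mutants. In crygs and crygmx the mutant pools lay below the siblings by more than the sibling pools differed among themselves. The crygm2d medians overlapped, at -0.088 to 0.25 in the siblings and -0.23 to 0.17 in the mutants.

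Other lens genes are given as counts from the same fit, to be read against the 27.8% of all named genes that were lower and the 29.9% that were higher. Of 17 alpha and beta crystallins, 17 were lower, with a median of -1.41 and a range of -3.80 to -0.40. The list holds cryaa (-1.03 ± 0.12), a lens chaperone, and the beta crystallins crybb2 (-3.80 ± 0.31), crybb1l3 (-2.53 ± 0.21) and cryba2b (-2.34 ± 0.23). Of 17 lens fibre membrane and cytoskeleton genes, 11 were lower and 2 higher, with a median of -0.61 (27.8% and 29.9% over all named genes). The lens aquaporin mipb (-1.30 ± 0.10), the fibre membrane gene lim2.1 (-1.78 ± 0.15) and lgsn (-1.25 ± 0.18) fell. The widely expressed cadherin cdh2 (0.75 ± 0.09) and bfsp1 (0.43 ± 0.15, limma adjusted p = 0.0417) rose. The median of the crygm2d genes (-0.082) was nearer to 0 than those of both lists.

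Of 15 transcription factors known from lens development, 10 were higher and 3 lower, with a median of 0.74 (29.9% and 27.8% over all named genes). The 3 that fell were the large Maf factors mafa (-1.27 ± 0.16), mafbb (-1.09 ± 0.15) and mafba (-0.34 ± 0.11). Another large Maf factor, nrl of the photoreceptor list, rose (0.76 ± 0.14), and maf was listed but not measured. The tissue in which these genes changed was not tested. The genes pax6b (1.56 ± 0.13), pax6a (1.36 ± 0.08), prox1a (1.03 ± 0.11) and six3a (0.85 ± 0.10) rose, all of which are also expressed in brain or retina. Of 7 neuron markers, 6 were higher (median 0.81), against 29.9% of all named genes. The part of neural tissue in these rises was not tested.

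Of 26 photoreceptor genes, 9 were higher, 1 was lower and 16 did not pass, with a median of 0.25; the share higher was near the 29.9% of all named genes. The recoverin rcvrna (0.99 ± 0.14) and the outer segment gene prph2b (0.92 ± 0.11) rose, and rhodopsin rho did not pass (-0.17 ± 0.15, adjusted p = 0.341). Of 15 genes of the inner retina and retinal pigment epithelium, 6 were higher and 4 lower, shares also not far from the 29.9% and 27.8% of all named genes. The 6 that rose were the retinal transcription factors pou4f1 (1.16 ± 0.11) and vsx1 (0.98 ± 0.12), and pou4f2 (0.71), rlbp1a (0.62), glula (0.58) and atoh7 (0.43). The 4 that fell were rlbp1b (-1.33 ± 0.17), rpe65a (-0.95), lrata (-0.63) and rdh5 (-0.56). The list joins genes of 2 tissues, so its pooled shares do not describe either of them. Of 9 surface epithelium genes, 9 were lower (median -1.09, against 27.8% of all named genes), among them cldni (-1.84 ± 0.15) and ppl (-1.32 ± 0.17). In this list the mean relative to the 8 arrays was 0.34 to 0.62 in the siblings and -0.81 to -0.34 in the mutants. Of 9 skeletal muscle genes, 2 rose and 1 fell, no more than the shares over all named genes (29.9% and 27.8%), and 4 of 8 liver genes rose. Without mutant replicate 4, 5 muscle genes were higher. The part of these tissues in the gamma crystallin values was not tested.

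**Figure D5:**
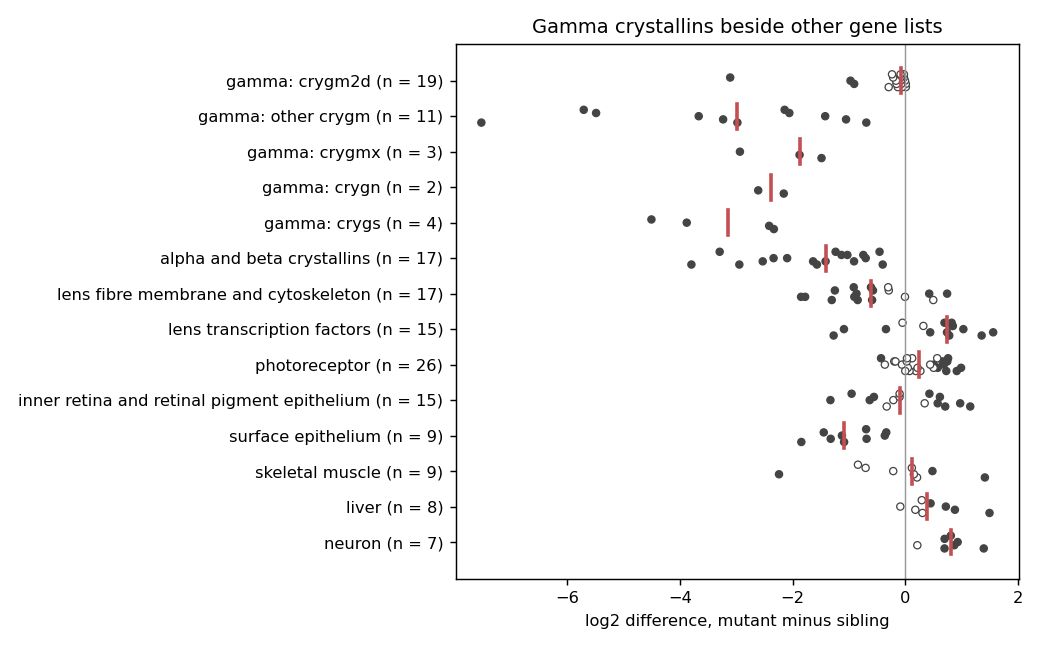
Log2 difference of each gene, mutant minus sibling, for the 5 gamma crystallin subfamilies and 9 other gene lists. Each circle is a gene, filled where it passed an adjusted p of 0.05, and the red bar is the median. The crygm2d median is -0.082, those of the other 4 gamma subfamilies lie between -3.15 and -1.88, and the alpha and beta crystallins have a median of -1.41.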

How the data were processed

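The deposited scanner files give 1 background-corrected intensity per spot from Agilent Feature Extraction 10.7.3.1, per the file headers. The deposited series table holds log2 values, which the scanner intensities gave once logged, scaled to the 75th percentile and centred per probe on the 8-array median (100% of comparable values within 0.01; column medians -0.093 to 0.17). It was used as an alternative, and this match settled its scale, centring and direction. Cy3 was the only dye, and the 8 arrays shared 1 slide and 1 scan.

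Of 61657 spots that were not controls, 1099 readings over the 8 arrays flagged as outliers were dropped. Log2 intensities were averaged per probe and the 75th percentile of each array was subtracted. Of 39749 probes, 61.8% were named, and the 29932 with all their spots well above background on at least 4 arrays were tested with limma 3.58.1 in R 4.3.3 (lmFit, eBayes, two-sided, Benjamini-Hochberg over the probes tested). Genes with several probes took the brightest. The fit was also run on simulated data in which few probes changed, up and down alike, with noise independent between probes. That setting does not cover the broad changes called here or probes that vary together.

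The members, the crygm2d group and the lists were chosen with earlier results of these data known. By the rule for named genes, array values are given for the brightest member, the largest and the smallest change of each subfamily and some that did not pass. Other members with array values (among them crygm1, crygm2a, crygm2e, crygm3, crygm4, crygs1, crygs3, crygm2d2 and crygm2d7) were added after their values were seen. So were the 20 pairs and the listed genes mipa, mafa, mafbb, mafba, nrl, bfsp1, rho, rpe65a, lrata, rdh5, pou4f2, glula and atoh7. The other listed genes are the 2 to 4 of smallest adjusted p in their list, with rlbp1b the third in its own. Normexp used spot medians, and spot means were not used here.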

Additional observations from a re-analysis of the deposited data

Results flagged for a closer look

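In 7 of the 78 groups of 4 arrays examined (39 genes in 2 genotypes, 8.97%), 1 array stood apart from the other 3. The limit was Dixon's 95% critical value for 4 samples, which chance exceeds in about 1 independent group in 20. The groups reuse the same 8 arrays and are not independent, so 8.97% cannot be set against that share. Sibling replicate 2 was the high array in 5 of the 7 groups. Its value was 7.19 for crygm2d16 against 6.92 to 6.96 in the other siblings, 6.99 for crygm2d18 against 6.65 to 6.67, and 8.84 for crygm2d2 against 8.56 to 8.61. For crygn1 it was 4.285 against 3.87 to 3.91, and for crygm2c 7.76 against 7.36 to 7.39. Mutant replicate 4 was high for crygm2b, at 7.51 against 7.20 to 7.24. Mutant replicate 1 was high for crygs1, at -3.98 against -4.69 to -4.585. In crygm2d2, crygn1, crygm2c, crygm2b and crygs1 every mutant array stayed below every sibling array.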

How the results depend on the processing

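All 20 genes outside the crygm2d group stayed below 0 with an adjusted p of at most 0.0117 (limma) in each of the 21 alternatives that tested them, and the filter for well above background on all arrays tested 16 of them. The number of gamma crystallins called lower was 23, 24 with normexp, 26 with quantile scaling and with array weights, 18 with the filter for all arrays, and 23 to 25 when 1 array was left out. Quantile scaling called 1 gene higher, crygm2d1 (0.40), turned crygm2d3 to -0.33, and gave medians of -2.68 for the other crygm genes and -1.51 for crygmx. Normexp gave medians of -2.58 for the other crygm genes and -1.87 for crygs, and turned crygs3 against crygs4 to 0.62. The filter for all arrays gave -2.56 and -2.33 for those medians, with fewer genes tested. Leaving out 1 array moved the median of the other crygm genes between -3.13 and -2.66 (the latter without mutant replicate 2), and the causes of these shifts were not tested.

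With the replicate number as a block, 23 gamma crystallins were called lower again, 1 lens fibre gene was higher and 0 photoreceptor genes were lower (limma). Same-numbered pools correlated in their deviations from the group means by -0.025 to 0.18. This was not set against pools of different numbers, and same-numbered pools always lay in different slide rows. Whether same-numbered pools share an origin was not tested. The lens fibre count of higher genes was also 1 with the slide row as a block and with no filter on dim probes, and 1 to 2 when 1 array was left out. Photoreceptor genes called lower numbered 2 with normexp and with quantile scaling, and 0 to 2 when 1 array was left out (0 without sibling replicate 4 or mutant replicate 4, 2 without mutant replicate 3). Skeletal muscle genes called higher numbered 1 with quantile scaling and 1 to 5 when 1 array was left out (5 without mutant replicate 4), and those called lower 1 to 2 (2 without mutant replicate 3). Dim probes, such as those of crygs and crygm2d15, were limited by signal over background.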
